A study of Mus musculus with 6 samples.

Results

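The 10 genes described here, Mef2b, S1pr2, Fas, Gcsam, Rgs13, Mybl1, Basp1, Nuggc, Plxnb2 and Cd38, are genes by which germinal centre B cells are told from other B cells in mice. They were chosen by name, and all 10 were among the 41669 gene symbols of the expression table. The RNA came from B cells of the spleen. The mice were NZB/W F1 hybrids, which develop a lupus-like disease, and had reached its late stage. The cells were taken by positive selection on a column and kept for 24 h with CpG, which activates B cells through Toll-like receptor 9. There were 3 libraries from females and 3 from males, each from its own mouse. Strain, disease stage and CpG culture were shared by all 6 mice, and sex is the only difference the labels give between the groups. Cultures without CpG, mice without disease and sorted germinal centre cells are not analysed here, and the labels give neither an age nor the surface marker used on the column.

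A germinal centre is the structure in a spleen or lymph node follicle where B cells divide, mutate their antibody genes and are selected for binding to antigen. Germinal centre B cells of the mouse carry Fas, a death receptor, and S1pr2, a receptor for sphingosine 1-phosphate that holds them in the centre of the follicle. They lose most of their CD38, an enzyme on the cell surface that uses NAD and is kept on resting follicular B cells. Spontaneous germinal centres are a known feature of lupus-prone mice.

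The estimated counts of a library summed to between 24089561 and 35659883, and levels are given as CPM, the counts scaled to a common library total. A level of 3 counts, taken as the lowest that could be told from 0, was 0.0841 to 0.125 CPM in 1 library. Female replicate 3 had a TMM scaling factor of 0.816, against 0.993 to 1.07 in the other 5 libraries. Of the B cell markers, Ms4a1, which encodes CD20, averaged 1517 ± 124.3 CPM in females and 1581 ± 87.7 CPM in males (SD, n = 3 each). Cd79a, a subunit of the B cell receptor, was far below it on the same scale, at 15.8 ± 12.6 CPM in females and 18.2 ± 4.97 CPM in males (SD, n = 3 each). The 6 T cell markers summed to 3.23 to 4.75 CPM in females and 0.959 to 3.05 CPM in males, with Cd3e at or near 0 in every library. Cd3d, another T cell receptor complex gene, was at 4.54, 2.32 and 2.44 CPM in females and at 0.477, 0.476 and 2.00 CPM in males, each female above each male, with a log2 ratio, female over male, of 1.75 ± 0.64 (SE; edgeR adjusted p = 0.999). Cd8a, the other T cell marker tested, overlapped between the sexes, with a log2 ratio of -0.72 ± 0.88 (SE; edgeR adjusted p = 0.999). It was at 0.127, 0.894 and 0.689 CPM in females and at 0.257, 2.04 and 0.974 CPM in males. Macrophage markers summed to 4.03 to 7.87 CPM in females and 1.18 to 2.03 CPM in males. Lyz2, which encodes lysozyme, was at 2.39, 3.32 and 2.20 CPM in females and at 0.282, 0.290 and 0.390 CPM in males, with a log2 ratio of 3.15 ± 0.40 (SE; edgeR adjusted p = 0.0837). Emr1, which encodes F4/80, was at 1.61, 3.25 and 1.36 CPM in females and at 0.888, 0.374 and 0.630 CPM in males, with a log2 ratio of 1.84 ± 0.51 (SE; edgeR adjusted p = 0.999). In both each female lay above each male, while Csf1r and C1qa were at or near 0. Cd68, also tested, overlapped between the sexes, with a log2 ratio of 0.06 ± 0.57 (SE; edgeR adjusted p = 0.999). It was at 0.906, 0.710 and 0.197 CPM in females and at 0.823, 0.515 and 0.479 CPM in males. Mertk, which was not tested, was at 0.105, 0.388 and 0.265 CPM in females and at 0, 0 and 0.0381 CPM in males. The sums of dendritic cell (4.69 to 8.38 CPM in females and 5.54 to 9.45 CPM in males) and T follicular helper markers (1.32 to 2.07 CPM in females and 1.58 to 2.98 CPM in males) overlapped between the sexes. Icos, with overlap and a log2 ratio of -0.51 ± 0.42 (SE; edgeR adjusted p = 0.999), made up most of the T follicular helper sum. Il21 and Pdcd1 were near the floor and not tested. Il21 was at 0.276, 0.148 and 0.144 CPM in females and at 0.0319, 0.0391 and 0.0997 CPM in males. Pdcd1 was at 0.0826, 0.237 and 0.0283 CPM in females and at 0 in males. Erythroid markers summed to 0.718 to 2.34 CPM in females and 0.0178 to 0.422 CPM in males, and neutrophil markers to 0.0283 to 0.454 CPM in females and 0 to 0.120 CPM in males. The part of other cells in the members' values was not tested. In bulk RNA, fewer cells of a type and less RNA per cell cannot be told apart.

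The promoters of 4 members are printed here because the results below turn on these genes: Rgs13 and Gcsam, whose values did not overlap between the sexes, Fas, which shared its highest and lowest library with them, and Cd38, the most abundant member. RefSeq windows on GRCm38.p6, from 250 bases before to 50 bases after the start site and written 5′ to 3′ on the strand of the gene, were found for 8 of the 10 members. Capitals mark matches to the motifs described after them. The windows are chr1:144177323-144177622 on the minus strand for Rgs13, chr16:45610190-45610489 on the plus strand for Gcsam, chr19:34290409-34290708 on the plus strand for Fas and chr5:43868559-43868858 on the plus strand for Cd38.
Rgs13: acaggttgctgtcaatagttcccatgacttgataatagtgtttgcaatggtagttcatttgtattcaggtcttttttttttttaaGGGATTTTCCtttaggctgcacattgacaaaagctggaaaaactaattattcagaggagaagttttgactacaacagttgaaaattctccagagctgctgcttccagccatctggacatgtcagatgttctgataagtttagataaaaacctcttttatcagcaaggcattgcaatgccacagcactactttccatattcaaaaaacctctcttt
Gcsam: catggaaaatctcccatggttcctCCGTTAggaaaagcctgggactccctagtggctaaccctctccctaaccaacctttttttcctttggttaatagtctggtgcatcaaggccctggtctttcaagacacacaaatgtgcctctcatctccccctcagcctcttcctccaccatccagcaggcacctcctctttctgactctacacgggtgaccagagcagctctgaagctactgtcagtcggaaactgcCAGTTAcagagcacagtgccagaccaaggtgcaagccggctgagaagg
Fas: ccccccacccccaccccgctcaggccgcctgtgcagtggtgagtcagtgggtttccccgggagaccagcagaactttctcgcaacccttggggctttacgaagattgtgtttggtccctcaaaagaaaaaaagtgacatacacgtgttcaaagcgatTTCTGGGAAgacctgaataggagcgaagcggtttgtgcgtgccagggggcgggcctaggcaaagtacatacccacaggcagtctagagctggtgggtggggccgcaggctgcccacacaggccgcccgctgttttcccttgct
Cd38: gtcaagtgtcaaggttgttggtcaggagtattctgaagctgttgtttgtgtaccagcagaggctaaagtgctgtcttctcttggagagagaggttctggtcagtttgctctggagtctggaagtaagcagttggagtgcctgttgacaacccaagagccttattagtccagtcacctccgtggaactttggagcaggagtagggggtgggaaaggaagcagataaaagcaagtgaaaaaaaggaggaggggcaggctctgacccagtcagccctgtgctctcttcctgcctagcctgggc

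Both strands of each window were searched for 7 motifs, and no matches overlapped. A kappa B-like match (GGG, any 3 bases, then TTCC) lay in the Rgs13 window at position -165 from the start site, and 5.56% of 32534 mouse promoter windows of the same length hold one. The Fas window held 1 STAT or BCL6-like match (TTCNNNGAA) at -93, a motif present in 8.33% of all windows. MYB matches (TAACNG) lay in the Gcsam window at -226 and 3 and in the S1pr2 window at -52, and 23.4% of all windows hold one. The octamer (ATGCAAAT), which B cell POU factors bind and which 1.75% of windows hold, was found in the Mef2b window at -85. No member window held an ETS-IRF composite (GGAA, any 2 bases, then GAAA; 2.73% of all windows), TATAAA (13.6%) or a MEF2 match (3.16%). The windows differed widely in CpG dinucleotides, with 0 in Rgs13, 1 in Cd38, 4 in Gcsam, 14 in Fas, 18 in S1pr2 and 38 in Basp1, against a median of 7 over all windows.

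Most of the 10 genes lay low in these cultures, and the member that germinal centre cells lose was the most abundant. Per kilobase of the longest annotated transcript, the mean levels over all 6 libraries ran in the order Cd38 (102.4 CPM per kb), Mybl1 (22.3), Fas (6.03), Rgs13 (2.72), Basp1 (0.621), Plxnb2 (0.387), Gcsam (0.334), S1pr2 (0.104), Nuggc (0.0476) and Mef2b (0.0259). On this scale Cd38 stood above 95.3% of the tested genes, Mybl1 above 79.9% and Fas above 58.2%, while S1pr2 stood above 3.01%. The ranges over libraries did not meet between Cd38 and Mybl1, between Mybl1 and Fas, or between Rgs13 and Basp1. All other neighbours in the order overlapped in range, although Fas was above Rgs13 within each of 6 libraries. With the coding length in place of the transcript length, Gcsam stood above Basp1 and S1pr2 above Plxnb2. Cd38 held 69.2 to 70.9% of the members' summed CPM in females and 69.5 to 80.0% in males. The label names what the genes are known for, and the labels describe no sort of germinal centre cells.

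**Figure D1:**
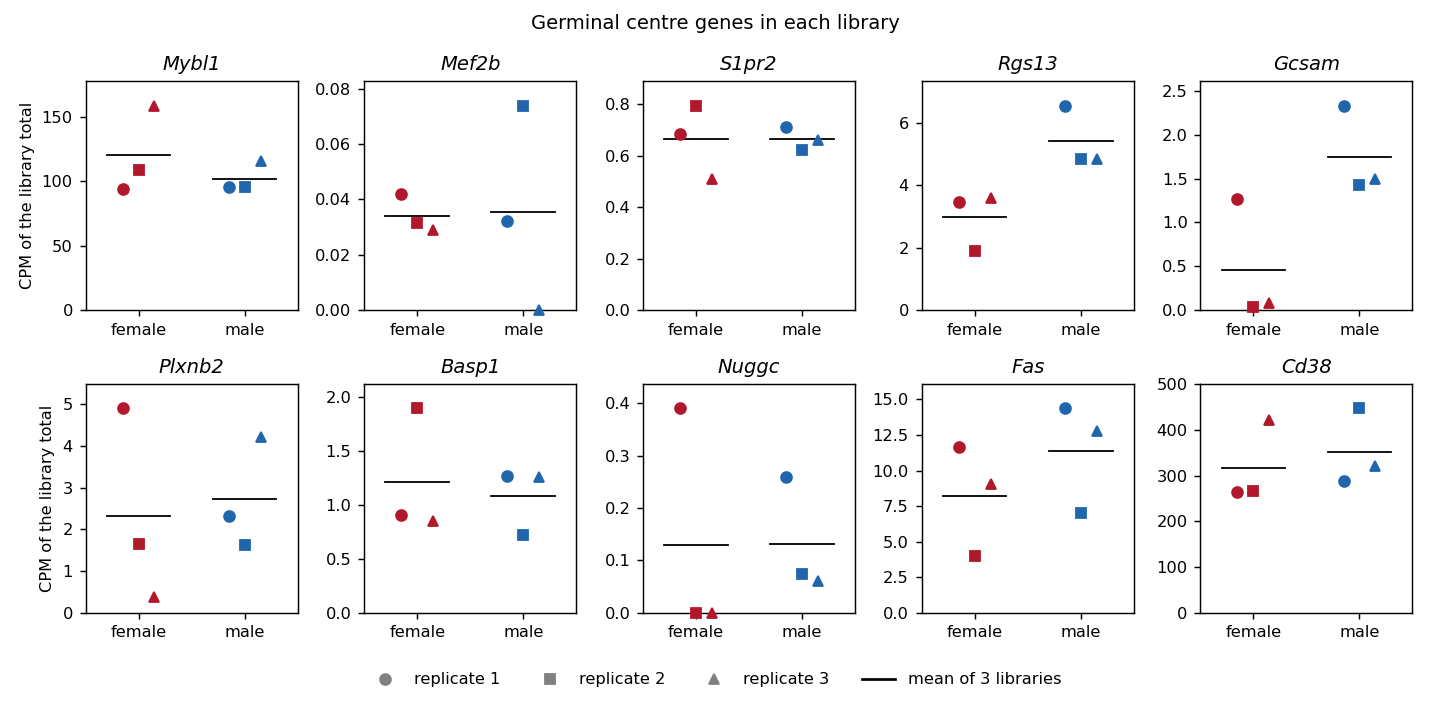
CPM of the library total (linear axis from 0, a scale of its own in each panel) for the 10 genes in 3 female and 3 male libraries, with 1 point per library and a line at the mean. Rgs13 and Gcsam were lower in every female library than in every male library, while the sexes overlap for the others.

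Between the sexes, 0 of the 8 members that passed the low-count filter were called, at an FDR of 0.05 over 12172 genes with edgeR's quasi-likelihood test, where 0.0575% of all tested genes were called. None of the 8 had an unadjusted p under 0.05 in that test, a mark that 2.89% of all tested genes reached. DESeq2 and limma-voom also called 0 of them (0.288% and 0.0739% of all tested genes), with 0 and 1 at an unadjusted p under 0.05. Log2 ratios, female over male throughout, were positive for 4 and negative for 4 of the 8, with a median of -0.09, against a median of 0.0009 over all tested genes. Mef2b and Nuggc did not pass the filter and were not tested.

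**Figure D2:**
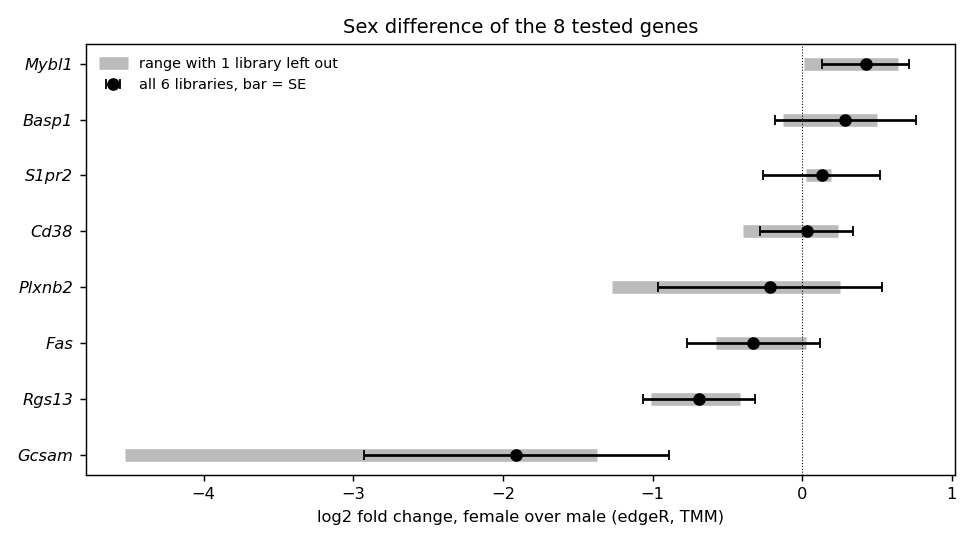
Log2 fold change, female over male, of the 8 tested genes from edgeR with TMM factors (points, bars are standard errors), with the range over fits that leave out 1 library (grey). Gcsam has the widest range, -4.52 to -1.37, and for Fas, Basp1, Plxnb2 and Cd38 the range crosses 0.

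Of the transcription factors among the members, Mybl1 was abundant and Mef2b was not detectable. Mybl1 encodes A-MYB, a MYB family activator made in dividing germinal centre B cells and in the testis (chromosome 1: 9667415 to 9700209, GENCODE M21 on GRCm38, as for all members). It was at 94.1, 108.2 and 158.5 CPM in females and at 95.5, 95.2 and 115.2 CPM in males. The sexes overlapped, and female replicate 3 stood highest. The log2 ratio was 0.42 ± 0.29 (SE; edgeR adjusted p = 0.999), and without female replicate 3 it was 0.01. Within the MYB family, Mybl1 averaged 24.2 ± 6.80 CPM per kb in females and 20.5 ± 2.30 in males (SD, n = 3 each). Myb, its relative of blood progenitors, averaged 16.3 ± 6.29 CPM per kb in females and 19.0 ± 1.72 in males, and Mybl2, a factor of cycling cells, 2.37 ± 2.33 CPM per kb in females and 2.59 ± 0.936 in males (SD, n = 3 each). Neither relative was called (2 of 2 tested, both negative).

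Mef2b, a factor that acts upstream of Bcl6 in germinal centre B cells, was not above the floor in any library. Its estimated counts were 1.01, 0.930 and 1.03 in females and 1.02, 2.02 and 0 in males. The highest level, in male replicate 2, was 0.0739 CPM with an exact Poisson 95% interval of 0.00884 to 0.264 CPM, which covers counting error only. Its gene (chromosome 8: 70139711 to 70167488) shares exon sequence with Borcs8 on the same strand, so reads from there may not be told apart. The other MEF2 genes were well above it per kilobase, with 0 of 3 called: Mef2a averaged 48.7 ± 8.31 CPM per kb in females and 43.9 ± 1.84 in males, and Mef2c 24.6 ± 10.8 CPM per kb in females and 34.2 ± 6.04 in males (SD, n = 3 each). Mef2d, at 27.5 ± 6.02 CPM in females and 20.5 ± 0.634 CPM in males (SD, n = 3 each), had the smallest p of that family, with a log2 ratio of 0.56 ± 0.20 (SE; edgeR adjusted p = 0.999) and an unadjusted edgeR p of 0.0246.

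Next come the members that act in positioning and signalling. Gcsam encodes a signalling adaptor that in humans limits the motility of germinal centre B cells (chromosome 16: 45610380 to 45622867). It was at 1.27, 0.0337 and 0.0842 CPM in females and at 2.33, 1.43 and 1.49 CPM in males. Every female library lay below every male library, but female replicate 1 was close to the males, and female replicates 2 and 3 were at or about the floor, with 0.990 and 3.00 estimated counts. The exact Poisson 95% interval was 0.874 to 1.83 CPM in female replicate 1, which does not meet 0.000861 to 0.189 CPM in female replicate 2 or 0.0173 to 0.246 CPM in female replicate 3. The log2 ratio was -1.91 ± 1.02 (SE; edgeR adjusted p = 0.999), and it was -3.12 with limma-voom. Its size rests on female replicate 1: without that library it was -4.52, with an unadjusted edgeR p of 0.000276 and an adjusted p of 0.150, and over all alternatives the adjusted p ran from 0.150 to 1.00.

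Rgs13 encodes a GTPase-activating protein that damps signals of chemokine receptors (chromosome 1: 144138654 to 144177372). It was at 3.48, 1.89 and 3.61 CPM in females and at 6.56, 4.84 and 4.85 CPM in males. The groups did not overlap, and female replicate 2 was lowest. Its log2 ratio was -0.69 ± 0.38 (SE; edgeR adjusted p = 0.999), with a range of -1.01 to -0.41 when 1 library was left out. Gcsam and Rgs13 were the 2 of 10 members with no overlap, and in both all females lay below all males, as did 7.55% of all tested genes, while 2.69% had all females above all males. With TMM factors the 2 genes still did not overlap, and those shares of all tested genes were 4.59% and 4.41%.

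Rgs13 was 1 of 9 RGS genes examined, and Rgs19 and Rgs2 were above it per kilobase. Rgs19 averaged 30.3 ± 0.926 CPM per kb in females and 32.0 ± 2.75 in males, Rgs2 4.19 ± 0.991 CPM per kb in females and 6.86 ± 0.426 in males, and Rgs13 1.94 ± 0.619 CPM per kb in females and 3.51 ± 0.642 in males (SD, n = 3 each). Rgs2, a regulator of Gq signalling, also had each female below each male, at 14.1, 9.20 and 14.6 CPM in females and at 21.3, 19.3 and 21.6 CPM in males, and a log2 ratio of -0.55 ± 0.27 (SE; edgeR adjusted p = 0.999). Of the other 8 RGS genes 7 were tested and 0 called (3 positive, 4 negative, median log2 ratio -0.01).

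S1pr2, the receptor that confines germinal centre B cells through the G protein subunit encoded by Gna13, was low and even (chromosome 9: 20962361 to 20976781). It was at 0.686, 0.796 and 0.512 CPM in females and at 0.713, 0.625 and 0.660 CPM in males. The values overlapped, and each rested on 16.5 to 23.4 estimated counts. Its log2 ratio was 0.13 ± 0.39 (SE; edgeR adjusted p = 0.999). S1pr1, the receptor that draws lymphocytes into circulation, averaged 4.17 ± 1.70 CPM per kb in females and 3.37 ± 0.170 in males, while S1pr2 averaged 0.104 ± 0.0224 CPM per kb in females and 0.104 ± 0.00696 in males (SD, n = 3 each). Of the S1P and Gα13 positioning genes, 9 of 13 were tested and 0 called (6 positive, 3 negative, median log2 ratio 0.05). Gna13 was at 275.1 ± 45.7 CPM in females and 295.4 ± 10.9 CPM in males, and Rhoa, a GTPase downstream of it, at 410.9 ± 2.32 CPM in females and 413.3 ± 30.3 CPM in males (SD, n = 3 each). Arhgef1, which links Gα13 to Rhoa, was at 1.31 ± 1.24 CPM in females and 2.55 ± 1.42 CPM in males (SD, n = 3 each), with overlap and a log2 ratio of -0.92 ± 0.67 (SE; edgeR adjusted p = 0.999).

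Plxnb2 encodes plexin B2, a semaphorin receptor that in mice helps germinal centre B cells meet T follicular helper cells (chromosome 15: 89155549 to 89180788). It was at 4.90, 1.65 and 0.384 CPM in females and at 2.32, 1.63 and 4.21 CPM in males. The females spanned the whole range, from the highest library (replicate 1) to the lowest (replicate 3). The log2 ratio was -0.22 ± 0.75 (SE; edgeR adjusted p = 0.999), and it was 0.25 without female replicate 3 and 0.25 without male replicate 3. Among other plexins and semaphorins, 6 of 10 were tested and 0 called (4 positive, 2 negative, median log2 ratio 0.13). Plxnc1 was the most abundant plexin of the list, at 21.2 ± 1.24 CPM per kb in females and 22.1 ± 8.12 in males, against 0.356 ± 0.359 CPM per kb in females and 0.419 ± 0.206 in males for Plxnb2 (SD, n = 3 each). Sema4d, which encodes a ligand of B-type plexins, was at 58.6, 53.5 and 79.2 CPM in females and at 53.0, 33.2 and 51.8 CPM in males. The sexes did not overlap, by a narrow margin, and the log2 ratio was 0.64 ± 0.29 (SE; edgeR adjusted p = 0.999). Sema4c, which encodes the semaphorin that Plxnb2 binds, was at or near 0 in all libraries.

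**Figure D3:**
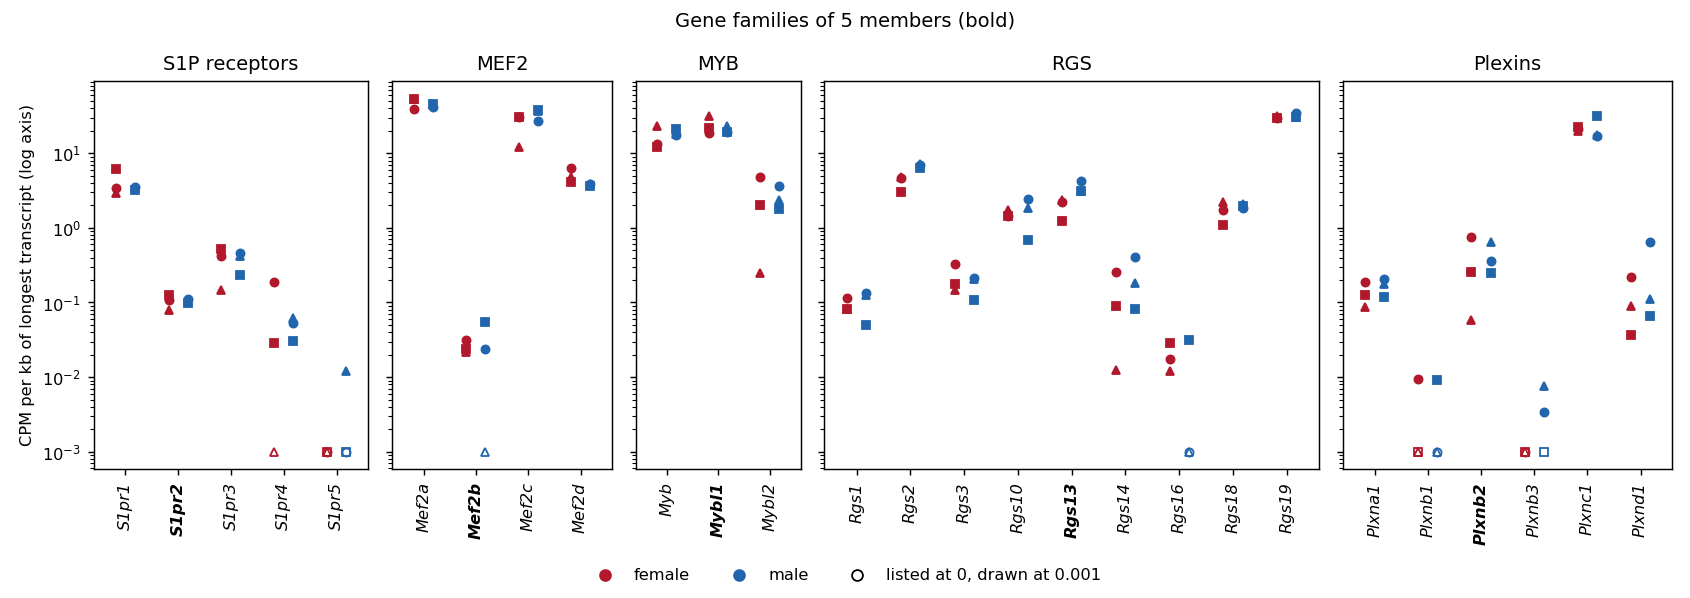
CPM per kb of the longest transcript (log axis) for 5 members (bold) and the related genes examined, with 1 point per library, female left of male; open points are listed at 0 and drawn at 0.001. Mef2b lies below the other MEF2 genes and S1pr2 below S1pr1 in every library, and Mybl1 lies above Mybl2 in every library.

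Basp1, which encodes a membrane-bound signalling protein of the MARCKS type, was at 0.908, 1.90 and 0.848 CPM in females and at 1.27, 0.726 and 1.26 CPM in males (chromosome 15: 25363277 to 25413764). The sexes overlapped, and female replicate 2 was highest. A log2 ratio of 0.29 ± 0.47 (SE; edgeR adjusted p = 0.999) was found, and of -0.13 without female replicate 2. Of its relatives, 2 of 3 were tested and 0 called. Marcks was at 11.8 ± 2.68 CPM in females and 9.41 ± 3.58 CPM in males, and Marcksl1 at 22.8 ± 1.44 CPM in females and 30.9 ± 5.69 CPM in males (SD, n = 3 each), with each female below each male for Marcksl1. Gap43 was listed at 0 in all 6 libraries.

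Nuggc encodes a nuclear GTPase of germinal centre B cells (chromosome 14: 65598546 to 65648531). It had 9.41, 0 and 0 estimated counts in females and 8.16, 2.03 and 2.03 in males. Replicate 1 of each sex was above the floor and the other 4 libraries were under it. In CPM these were 0.391 in female replicate 1 and 0.259 in male replicate 1, with exact Poisson 95% intervals of 0.171 to 0.709 and 0.109 to 0.500.

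Fas, the death receptor used with CD38 to gate germinal centre cells, was the most abundant member per kilobase after Cd38 and Mybl1 (chromosome 19: 34290666 to 34327772). It was at 11.6, 3.98 and 9.04 CPM in females and at 14.4, 7.03 and 12.8 CPM in males. The sexes overlapped, and female replicate 2 and male replicate 2 were the lowest of their sex. The log2 ratio was -0.33 ± 0.44 (SE; edgeR adjusted p = 0.999), and without female replicate 2 it was 0.024. Fas, Rgs13 and Gcsam had their lowest value in female replicate 2 and their highest in male replicate 1. Female replicate 2 also held the highest sum of plasma cell markers, which ranged over 268.9 to 454.8 CPM in females and 246.8 to 293.3 CPM in males, and the highest Prdm1, a plasma cell regulator, at 22.1, 61.5 and 22.9 CPM in females and at 11.7, 12.8 and 12.9 CPM in males. For Prdm1 each female lay above each male, with a log2 ratio of 1.63 ± 0.39 (SE; edgeR adjusted p = 0.999) and an unadjusted edgeR p of 0.0036. Of the other plasma cell markers, Sdc1 was lowest in female replicate 2, at 3.22, 1.59 and 1.80 CPM in females and at 2.02, 2.17 and 2.92 CPM in males, and Xbp1 was not highest there, at 124.2, 118.2 and 72.9 CPM in females and at 114.7, 122.4 and 103.5 CPM in males. Igj, the J chain gene, was at 37.7, 48.4 and 48.2 CPM in females and at 17.1, 17.0 and 18.3 CPM in males, each female above each male, with a log2 ratio of 1.51 ± 0.22 (SE; edgeR adjusted p = 0.169). Irf4 made up the largest part of the plasma cell marker sum in female replicate 2. It was at 143.7, 225.1 and 123.1 CPM in females and at 110.6, 138.9 and 109.1 CPM in males, with overlap. The part of plasma cells in these values was not tested. Of the genes of the Fas death pathway, 7 of 9 were tested and 0 called (3 positive, 4 negative, median log2 ratio -0.09). Cflar, an inhibitor of death receptor signals, was at 164.1 ± 10.7 CPM in females and 192.9 ± 80.8 CPM in males (SD, n = 3 each). Casp8, the initiator caspase, was at 108.5, 104.4 and 70.3 CPM in females and at 96.2, 91.3 and 93.1 CPM in males. Fadd, the adaptor between Fas and Casp8, was at 5.21 ± 2.28 CPM in females and 7.81 ± 0.855 CPM in males (SD, n = 3 each).

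Cd38 encodes the NAD-consuming ectoenzyme that separates follicular from germinal centre B cells in mice (chromosome 5: 43868553 to 43912375). It was at 263.9, 266.1 and 421.0 CPM in females and at 289.3, 447.9 and 320.5 CPM in males. The sexes overlapped, with female replicate 3 and male replicate 2 above the other 4 libraries. Its log2 ratio was 0.03 ± 0.31 (SE; edgeR adjusted p = 0.999). The direction depended on the scaling, at -0.15 with library totals only, which moved the median of all genes by -0.12, and on female replicate 3, without which it was -0.39. Bst1, the related ectoenzyme gene, averaged 0.186 ± 0.0667 CPM per kb in females and 0.271 ± 0.0494 in males, against 96.9 ± 27.5 CPM per kb in females and 107.8 ± 25.7 in males for Cd38 (SD, n = 3 each). Of 4 genes of NAD metabolism, 3 were tested and 0 called (1 positive, 2 negative, median log2 ratio -0.27), among them Nampt, which makes an NAD precursor, at 530.8 ± 28.7 CPM in females and 530.8 ± 32.9 CPM in males (SD, n = 3 each).

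Regulators and other genes of the germinal centre gave no call. Of the 11 regulators all 11 were tested (7 positive, 4 negative, median log2 ratio 0.14), and of 12 other germinal centre genes 11 were tested (4 positive, 7 negative, median log2 ratio -0.04). Pax5, the factor of B cell identity, was at 550.7 ± 35.8 CPM in females and 528.4 ± 30.3 CPM in males (SD, n = 3 each). Ezh2, which encodes a Polycomb methyltransferase of dividing germinal centre cells, was at 470.6, 482.8 and 486.8 CPM in females and at 447.0, 335.1 and 446.9 CPM in males, each female above each male, with a log2 ratio of 0.38 ± 0.18 (SE; edgeR adjusted p = 0.999). Bcl6, the master regulator of the germinal centre state, was at 18.2, 22.4 and 26.3 CPM in females and at 20.9, 16.2 and 22.1 CPM in males, with overlap.

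Genes kept by follicular and resting B cells were examined beside Cd38, and 0 of the 8 tested were called (3 positive, 5 negative, median log2 ratio -0.18). Of these, 3 had an unadjusted p under 0.05 and 4 had no overlap between the sexes, against 2.89% and 10.2% of all tested genes. Fcer2a, which encodes the IgE receptor CD23, was at 2.42, 1.49 and 0.808 CPM in females and at 3.75, 8.32 and 3.59 CPM in males, with a log2 ratio of -1.65 ± 0.48 (SE; edgeR adjusted p = 0.999) and an unadjusted edgeR p of 0.00994. Cr2, a complement receptor gene, lay on the other side, at 196.3 ± 15.4 CPM in females and 169.5 ± 7.79 CPM in males (SD, n = 3 each), with a log2 ratio of 0.35 ± 0.13 (SE; edgeR adjusted p = 0.999). Follicular dendritic cells also express Cr2, and their 3 markers summed to 0.509 to 1.11 CPM in females and 0.0300 to 0.120 CPM in males. Cxcl13 among them was at 0.413, 1.08 and 0.509 CPM in females and at 0, 0 and 0.0300 CPM in males, while Clu and Mfge8 were at 0 in most libraries. The part of such cells in the Cr2 value was not tested.

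Female replicate 3 departed from the other libraries in a way that went with the GC content of transcripts. Over all tested genes with an annotated transcript, its median log2 deviation from the mean of the other 5 libraries (log2 of CPM + 0.1) was 0.10 in the lowest quartile of GC content and -1.15 in the highest. Mybl1, with a transcript of 37.0% GC, and Cd38, of 40.9%, lay higher in it, by 0.65 and 0.44 on that scale. Plxnb2, of 57.3% GC, had a deviation of -2.51, while Basp1, of 56.4%, had one of -0.40. Rgs13, with the lowest GC content of the members at 34.4%, had a deviation of -0.15. Gcsam, of 42.7% GC, had one of -2.46, while Fas, of 43.9% GC, had one of 0.0011. The part of this library's composition in the members' values was not tested beyond leaving it out, and without it 0 members were called.

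**Figure D4:**
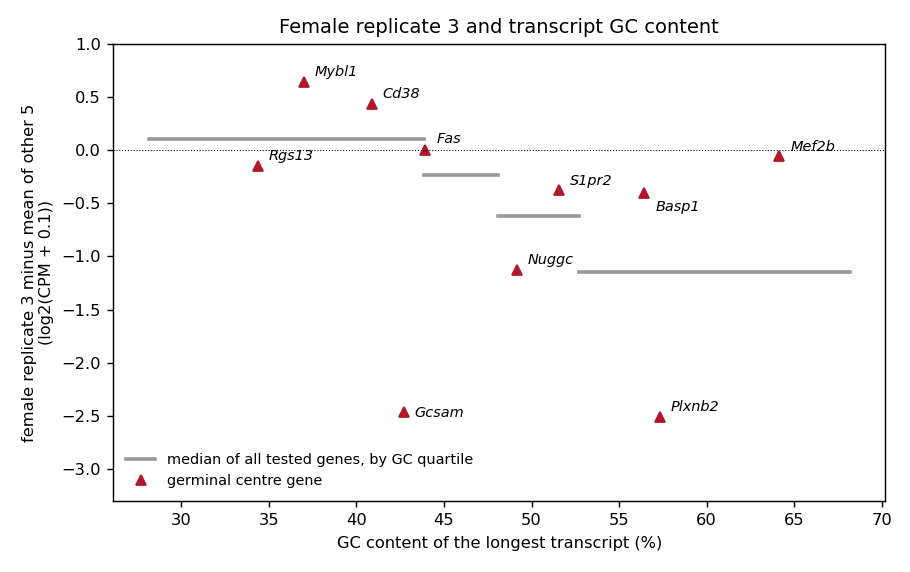
Deviation of female replicate 3 from the mean of the other 5 libraries, on the log2(CPM + 0.1) scale, against the GC content of the longest transcript of the 10 genes. Triangles are the 10 genes and grey lines the medians of all tested genes in each quartile of GC content, from 0.10 in the lowest to -1.15 in the highest. Plxnb2 and Gcsam lie lowest, at -2.51 and -2.46.

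For the 3 members with the highest mean CPM, the genes with the most similar pattern over the 6 libraries were named by the smallest root mean square difference of centred log2(CPM + 1) values. For Cd38 they were Snx13 (0.050 log2 units), Ppm1e (0.0629) and Dzip3 (0.0670), against a median of 0.438 over all genes considered. For Mybl1 they were Zxdb (0.0280), Fam49b (0.0385) and Lcorl (0.0435), against 0.434. For Fas they were Dapk2 (0.166), Ndc80 (0.175) and Cenpa (0.178), against 0.596. The likeness is a description over 6 libraries, which differ in depth and composition, and all genes of a library share these. The genes named for Mybl1 were each highest in female replicate 3, as Mybl1 was. The part of that library's composition in the likeness was not tested. Ndc80, a kinetochore gene, was at 27.6, 9.56 and 23.7 CPM in females and at 32.1, 23.4 and 30.5 CPM in males, lowest in female replicate 2 as Fas was.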

How the data were processed

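RNA sequencing of CpG-cultured splenic B cells from 3 female and 3 male mice was used. The authors deposited estimated counts per gene symbol, with library totals left unequal. Kallisto, DESeq2 and GRCm38.p6 are named, per the submitters' processing notes; versions, annotation and settings were not stated. Single reads have values slightly off 1, and whether the authors scaled the estimated counts by transcript length is not known.

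Levels are CPM of the column total, and per-kilobase levels divide by the longest GENCODE M21 transcript. For tests, estimated counts were rounded to whole numbers, filtered with filterByExpr, scaled with TMM and compared with edgeR 4.0.16 (R 4.3.3, glmQLFit and glmQLFTest, sex alone, Benjamini-Hochberg adjustment over 12172 genes). Standard errors are the log2 ratio over the square root of F. The procedure was tested on simulated data. The outcome is not reported here, so the power to call a member with 3 against 3 libraries is left unstated. Poisson intervals cover counting error only. Alternatives were DESeq2 1.42.0, limma-voom (limma 3.58.1), RLE factors, library totals only, no filter, 1 CPM in 3 libraries, the mouse number as a block, immunoglobulin genes removed, coding length and each library left out.

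The members and lists were chosen with earlier results of these data known. All members are named; of each list, the 4 most abundant genes and the 2 with the smallest p, at a mean of at least 1 CPM, could be named, as could all cell type markers. Bcl6, Bst1, Sema4c and Gap43 were named outside that rule, after their values were seen. Some list genes are counted but not reported here by name. Promoters are from RefSeq. Figures were drawn with matplotlib 3.10.9.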

Additional observations from a re-analysis of the deposited data

How the results depend on the processing

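No member was called under any of the alternatives run, and of 111 member log2 ratios recomputed, 101 kept their direction and 10 reversed. The lowest adjusted p of a member was 0.150 (edgeR). The unadjusted edgeR p was under 0.05 for Gcsam (0.000276) and Mybl1 (0.0382) without female replicate 1, and for Rgs13 (0.0196) without female replicate 3. Gcsam was also under that mark with limma-voom (0.0112) and, in edgeR, with the mouse number as a block (0.0153). In the other alternatives no member was under it. Over all genes, 7 were called with edgeR, 35 with DESeq2 and 11 without a low-count filter. Leaving out 1 library gave 4 to 12 calls, with 12 in the absence of female replicate 1 or of female replicate 3, and 4 in that of female replicate 2, male replicate 1 or male replicate 2. The log2 ratio then ran from -0.58 to 0.024 for Fas, from -0.13 to 0.50 for Basp1, from -1.27 to 0.25 for Plxnb2 and from -0.39 to 0.24 for Cd38. Cd38 also reversed with limma-voom (-0.023) and with library totals only (-0.15). The cause was not tested. With coding length, 7 of the 10 per-kilobase levels moved by more than the spread between libraries.

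Same-numbered mice are separate animals. The numbers were not treated as pairs. Deviations from the group means correlated at 0.222, 0.0423 and 0.0695 for numbers 1, 2 and 3. Between mice of different numbers the correlations ran from -0.207 to 0.120. The deviations of 3 mice from their own mean are not independent, so these values cannot decide whether same-numbered mice shared a batch. With the number as a replicate block, 7 genes and 0 members were called, and the log2 ratio of Cd38 was -0.028. S1pr2 had no value under the filter of 1 CPM in 3 libraries. Mef2b was under the floor of 3 counts in all 6 libraries and Nuggc in 4 of them, where no difference was detectable at this depth.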
